A study of Bos grunniens with 6 samples.

Results

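The miRNAs of the miR-15/16 clusters and of the cluster of miR-195 and miR-497 were described in cultured follicle cells of yak (Bos grunniens) skin, in 3 small-RNA libraries of dermal papilla cells and 3 of hair matrix cells. By name, 6 of the 2853 entries of the deposited table matched: bta-miR-15a, bta-miR-15b, bta-miR-16a, bta-miR-16b, bta-miR-195 and bta-miR-497, where bta marks a cattle name and is left out from here on where it is not needed. Each is listed as 1 entry. Dermal papilla cells are mesenchymal cells from the follicle base, which the labels class as dermal cells, and hair matrix cells are the epithelial cells that surround the papilla, classed as epidermal cells. Both were wild type (WT), isolated from skin and grown in DMEM/F12 with 10% fetal bovine serum, 1% penicillin-streptomycin and the growth factors EGF (20 ng/mL) and IGF1 (10 ng/mL). The labels call the libraries biological replicates without naming animals or cultures, so p-values here reflect the spread over these libraries, which may be technical.

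The miR-15/16 family is best known as a brake on the cell cycle. A miRNA guides a silencing complex to messenger RNAs that pair with its seed, the stretch of bases near its 5′ end, and in human and mouse cells the seed of this family pairs with the messages of cyclin D1, cyclin E1, CDK6, WEE1, CHEK1 and the survival factor BCL2. In human the family comes from several loci: miR-15a and miR-15b are each transcribed with a copy of miR-16, and miR-195 is transcribed with miR-497. Positions in the yak genome were not used here, and which of miR-16a and miR-16b lies beside which miR-15 gene was not established.

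The listed sequences, printed 5′ to 3′ with T for U as deposited, show what joins and what separates the members. The capitals mark the seed, bases 2 to 8, which is the same in all 6.
miR-15a: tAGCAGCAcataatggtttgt
miR-15b: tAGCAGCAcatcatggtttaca
miR-16a: tAGCAGCAcgtaaatattggtg
miR-16b: tAGCAGCAcgtaaatattggc
miR-195: tAGCAGCAcagaaatattggca
miR-497: cAGCAGCAcactgtggtttgta
Of all 2853 entries, 8 hold this seed (0.280%). The other 2 are miR-424-5p and a predicted entry that stayed under 1 RPM in every library, that is, under 1 read in every 1000000. Outside the seed the members fall into close and distant pairs. With positions counted from the 5′ end, miR-16a and miR-16b share their first 20 bases and differ by T21C and in length, 22 against 21 bases. They are the only near-identical pair (at most 1 mismatch over at least 18 bases) that any member forms with any entry of the table. miR-195 differs from miR-16b by 2 substitutions, G10A and T11G (miR-16b base first), and miR-15a differs from miR-15b by 3 over 21 aligned bases. The cluster partners miR-195 and miR-497 are less alike, with 13 identical bases of 22, and miR-497 is the only member that begins with c.

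Levels are given in RPM, that is, reads scaled to a library total of 1000000. The totals were 23904796 to 24693655 reads, the listed entries took 71.7% to 73.5% of them, and 3 reads correspond to 0.121 to 0.125 RPM. The labelled cell types carried their markers. Summed over 7 entries of mesenchymal miRNAs such as miR-143 and miR-199a, the level was 91004 to 93998 RPM in dermal papilla libraries and 1209 to 1427 RPM in hair matrix libraries. Summed over 8 epithelial entries such as miR-200c and miR-184, it was 390 to 464 RPM in dermal papilla libraries and 82032 to 84767 RPM in hair matrix libraries. In such bulk libraries fewer cells of a type and less RNA per cell cannot be told apart.

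miR-195 and miR-497 rose in dermal papilla cultures, nearly 8-fold and by almost the same factor, whereas the 4 miR-15/16 members stayed under 1.5-fold. All 6 members were above 1 RPM in all 6 libraries, so none entered the test through 1 cell type only. With limma on log2(RPM + 1) over 503 entries, a call required a Benjamini-Hochberg adjusted p under 0.05 and at least 2-fold. By this rule 2 of 6 members were called higher in dermal papilla cultures, where 25.2% of the 503 entries were. In the other direction 0 of 6 were called, against 19.9% of all entries (45.1% in either direction). The count of 0 was also found with edgeR and DESeq2, and no member had a negative change at an unadjusted p under 0.05. The median log2 change was 0.49 over the members and -0.01 over all entries tested.

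bta-miR-195, a repressor of cyclins that is known from the heart muscle of newborn mice as a brake on division, was read 552, 469 and 486 times in dermal papilla libraries and 67, 63 and 66 times in hair matrix libraries. These reads gave 23.1, 19.6 and 20.0 RPM in dermal papilla cultures and 2.71, 2.57 and 2.75 RPM in hair matrix cultures. The lowest dermal papilla library lay far above the highest hair matrix library. The means were 20.9 ± 1.90 RPM in dermal papilla cultures and 2.68 ± 0.0931 RPM in hair matrix cultures (SD, n = 3 each), a 7.81-fold ratio. The log2 change was 2.57 ± 0.087 (SE), with a 95% interval of 2.36 to 2.78 (limma adjusted p = 1.08e-07).

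bta-miR-497, its cluster partner, had 16.8, 18.8 and 18.6 RPM in dermal papilla libraries and 2.47, 1.92 and 2.62 RPM in hair matrix libraries. Again the groups were widely apart, with 47 to 63 reads per hair matrix library behind the low values. The means were 18.1 ± 1.11 and 2.34 ± 0.370 RPM in dermal papilla and hair matrix cultures (SD, n = 3 each), a 7.72-fold ratio. The log2 change was 2.52 ± 0.11 (SE), with a 95% interval of 2.27 to 2.77 (limma adjusted p = 3.71e-07). Because 1 RPM is added before the log, both changes are understated, and edgeR on the whole reads gave 2.94 for miR-195 and 2.92 for miR-497. Ordered by log2 change from highest in dermal papilla cultures, miR-195 and miR-497 took places 63 and 64 of 503.

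**Figure D1:**
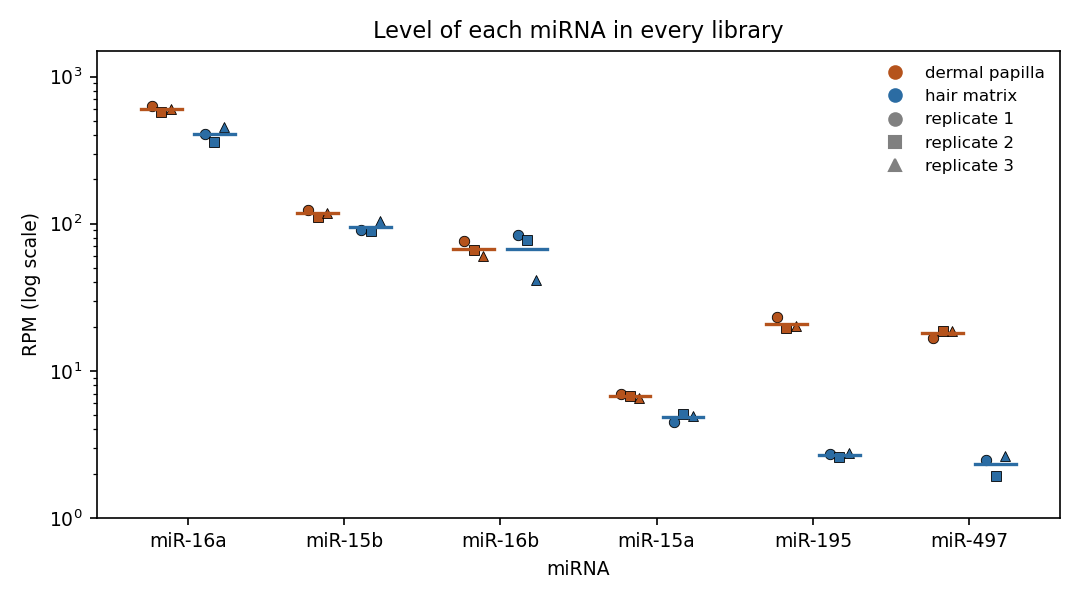
Level of each of the 6 miRNAs in RPM (log scale) in every library, dermal papilla at the left and hair matrix at the right of each pair. Points are libraries, their shape gives the replicate number and lines are means. miR-195 and miR-497 lie between 16.8 and 23.1 RPM in dermal papilla cultures and between 1.92 and 2.75 RPM in hair matrix cultures, while the 4 other miRNAs differ little.

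bta-miR-16a, the most abundant member, had 630, 575 and 600 RPM in dermal papilla libraries and 405, 362 and 458 RPM in hair matrix libraries. The groups did not overlap, as in 5 of the 6 members, all 5 higher in dermal papilla cultures, and in 84.1% of the 503 entries (41.7% with this direction). Its means were 602 ± 27.4 and 408 ± 48.2 RPM in dermal papilla and hair matrix cultures (SD, n = 3 each), a 1.47-fold ratio and a log2 change of 0.56 ± 0.089 (SE). The adjusted p of limma was 0.000685, yet the change stayed under the 2-fold minimum.

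bta-miR-15b, one of the pair of miR-15 genes, had 124, 111 and 118 RPM in dermal papilla libraries and 90.0, 89.6 and 104 RPM in hair matrix libraries. The lowest dermal papilla value and the highest hair matrix value were close. The means were 118 ± 6.13 and 94.5 ± 8.23 RPM, a 1.24-fold ratio, and the log2 change was 0.32 ± 0.078 (limma adjusted p = 0.00725, under 2-fold). bta-miR-15a, the scarcest member in dermal papilla cultures, had 6.90, 6.73 and 6.52 RPM there and 4.45, 5.11 and 4.92 RPM in hair matrix libraries. This is a narrow gap that rests on 158 to 165 reads per dermal papilla library and 110 to 125 reads per hair matrix library. Its ratio was 1.39-fold and its log2 change 0.41 ± 0.079 (limma adjusted p = 0.00216, under 2-fold).

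An adjusted p under 0.05 at any fold was found for 5 of 6 members, all with a positive change, and for 82.7% of the 503 entries (42.1% with a positive change). Counted in either direction a share of this size is close to the background, while with a positive change it lay above the 42.1%. The small changes of miR-15a and miR-15b depended on the scaling. Median centring, which moved the median log2 change of all entries to -0.29, left 0.13 for miR-15a (adjusted p = 0.173), 0.04 for miR-15b (adjusted p = 0.648) and 0.29 for miR-16a (adjusted p = 0.0168). Over the alternatives with all libraries, the adjusted p of miR-15a and miR-15b ranged up to these values. The changes of miR-195 and miR-497 after median centring were 2.30 and 2.24, both called. Of all entries, 109 were then called higher and 137 lower in dermal papilla cultures, in place of 127 and 100.

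**Figure D2:**
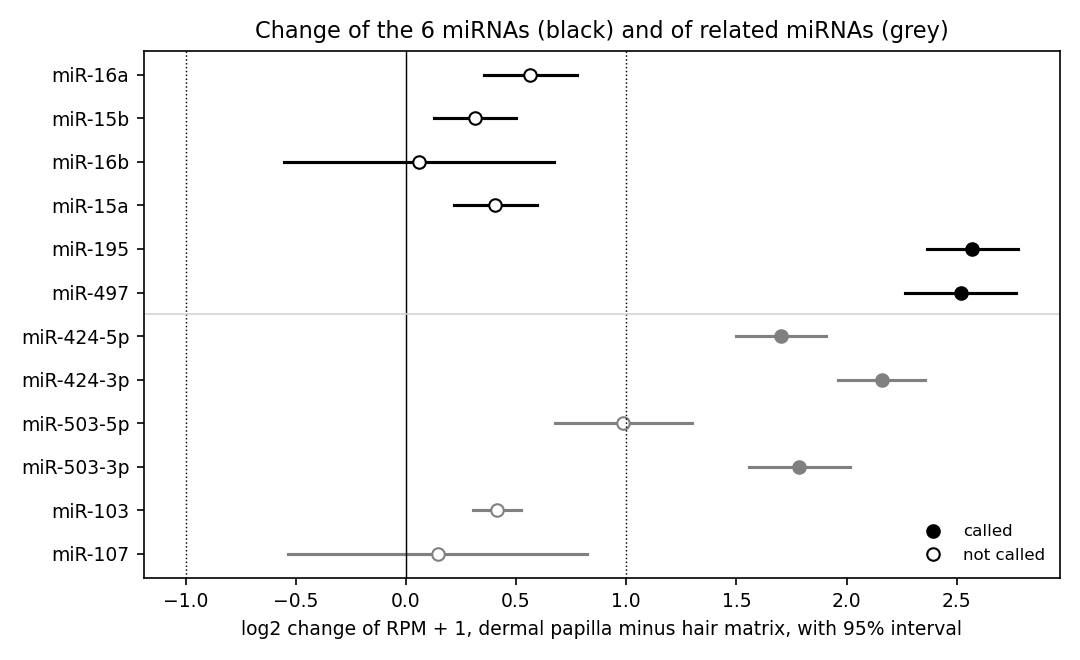
Log2 change of RPM + 1, dermal papilla minus hair matrix, with the 95% interval from limma, for the 6 miRNAs in black and for miR-424, miR-503, miR-103 and miR-107 in grey. Filled points were called and dotted lines mark 2-fold. miR-195 and miR-497 lie at 2.57 and 2.52, the 4 miR-15/16 members between 0.06 and 0.56.

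bta-miR-16b, which shares its first 20 bases with miR-16a, was the member without a group difference larger than its spread. It had 76.3, 66.0 and 60.6 RPM in dermal papilla libraries and 83.4, 78.0 and 41.4 RPM in hair matrix libraries. The groups overlapped, and hair matrix replicate 3 lay below every other library. The means were 67.6 ± 7.99 RPM in dermal papilla cultures and 67.6 ± 22.8 RPM in hair matrix cultures (SD, n = 3 each). The log2 change was 0.06 ± 0.26 (SE), with a 95% interval of -0.56 to 0.67 (limma adjusted p = 0.846). Without hair matrix replicate 3 it was -0.26 (limma adjusted p = 0.0687). It was also negative without dermal papilla replicate 1, at -0.03, and after median centring, at -0.22, so its sign is not settled.

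The same library was the highest of the hair matrix libraries in miR-16a. miR-16b made up 10.8%, 10.3% and 9.17% of the reads of miR-16a and miR-16b together in dermal papilla libraries. In hair matrix libraries it made up 17.1%, 17.7% and 8.29%, so replicates 1 and 2 were high and replicate 3 was the lowest of all 6. The sum of both entries was more even, at 706, 641 and 661 RPM in dermal papilla libraries and 489, 440 and 499 RPM in hair matrix libraries. Entered as a single entry, the sum had a log2 change of 0.49 ± 0.065 (SE; limma adjusted p = 0.000244, under 2-fold). A read that ends within the shared 20 bases matches both entries, the rule by which such reads were counted is not given in the sources used here, and its part in the split was not tested. miR-16a and miR-16b should therefore be read as uncertain when taken alone.

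Replicates of miR-16a and miR-16b also varied beyond counting error. Within hair matrix cultures, the chi-square statistic of the reads per degree of freedom (near 1 if only counting error is present) was 138 for miR-16a and 186 for miR-16b. It was 0.571 for miR-15a, 0.0788 for miR-195 and 1.43 for miR-497, whose replicates thus spread about as counting error allows or less. In dermal papilla cells it was 29.8 and 22.7 for miR-16a and miR-16b, 0.134 for miR-15a, 4.15 for miR-195 and 1.64 for miR-497. For miR-15b it was 7.64 in dermal papilla cultures and 17.4 in hair matrix cultures. Reads without molecular identifiers are not independent molecules, so this covers counting error only. The statistic also grows with the number of reads, so it does not compare the spread of abundant and scarce miRNAs. Within hair matrix cultures the SD was 11.8% of the mean for miR-16a, 33.8% for miR-16b and 8.71% for miR-15b. It was 6.93% for miR-15a, 3.47% for miR-195 and 15.8% for miR-497. In dermal papilla cultures, in the same order, it was 4.55%, 11.8%, 5.21%, 2.88%, 9.10% and 6.16%.

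The order of the levels differed between the cell types. All members are 21 or 22 bases long, so RPM was not divided by length. In dermal papilla cells the order was miR-16a, miR-15b, miR-16b, miR-195, miR-497 and miR-15a. Each lay above the next in all 3 libraries without overlap, but miR-195 and miR-497 were only 1.16-fold apart. In hair matrix cells the order was miR-16a, miR-15b, miR-16b, miR-15a, miR-195 and miR-497. The last pair overlapped, and miR-15a lay 1.80-fold above miR-195 in mean level. Among all 2853 entries the mean level of miR-195 ranked 190 in dermal papilla cultures and 315 in hair matrix cultures. miR-16a ranked 58 and 67 in the same order of cell types.

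The members together had 876, 797 and 824 RPM in dermal papilla libraries and 588, 539 and 614 RPM in hair matrix libraries, or 0.115% ± 0.00574 and 0.0799% ± 0.00540 of listed reads (SD, n = 3 each). Most of this pool was miR-16a, with 72.3% ± 0.514 of it in dermal papilla cultures and 70.2% ± 3.92 in hair matrix cultures. miR-195 and miR-497 together made up 4.68% ± 0.130 of the pool in dermal papilla cultures and 0.863% ± 0.0259 in hair matrix cultures. Even where they were high, they thus remained a small share of the reads with this seed among the members.

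**Figure D3:**
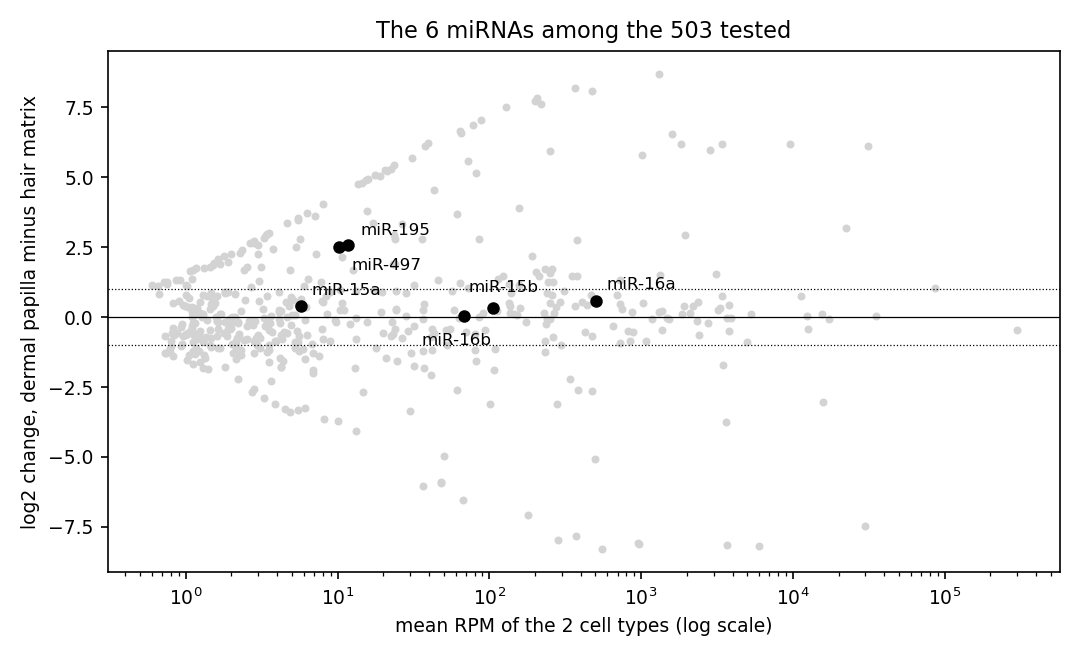
Mean RPM of both cell types (log scale) against the log2 change of RPM + 1, dermal papilla minus hair matrix, for the 503 entries tested in grey and the 6 miRNAs in black. Dotted lines mark 2-fold. miR-195 and miR-497 lie side by side at a low level, and the abundant miR-16a lies at 0.56.

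Ratios within a library do not depend on how libraries are scaled. The 4 ratios were compared by two-sided exact permutation tests over the libraries, in which 3 against 3 cannot give a p below 0.1, with adjustment over the 4. The ratio of miR-195 to miR-497 was 1.38, 1.04 and 1.08 in dermal papilla libraries and 1.10, 1.34 and 1.05 in hair matrix libraries. Its means were 1.17 ± 0.183 and 1.16 ± 0.156 in dermal papilla and hair matrix cultures (SD, n = 3 each, exact p = 1), and the groups overlapped fully while both miRNAs differed nearly 8-fold between the cell types.

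The ratio of miR-195 to miR-16a was 0.0347 ± 0.00174 in dermal papilla cultures and 0.00660 ± 0.000561 in hair matrix cultures (SD, n = 3 each), without overlap. This is a 5.26-fold difference, with an exact permutation p of 0.1, the smallest possible, and an adjusted p of 0.2. miR-15b to miR-16a was 0.196 ± 0.00162 in dermal papilla cultures and 0.232 ± 0.0136 in hair matrix cultures, again without overlap (exact permutation p = 0.1, adjusted p = 0.2). Its log2 difference was -0.25. The ratios to miR-16a use that entry alone, which is uncertain as stated above. Ratios to the sum of miR-16a and miR-16b were not tested. miR-15a to miR-16b was 0.0905, 0.102 and 0.108 in dermal papilla libraries and 0.0534, 0.0655 and 0.119 in hair matrix libraries. These overlapped (exact permutation p = 0.4, adjusted p = 0.533), with hair matrix replicate 3 as the highest of the 6.

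**Figure D4:**
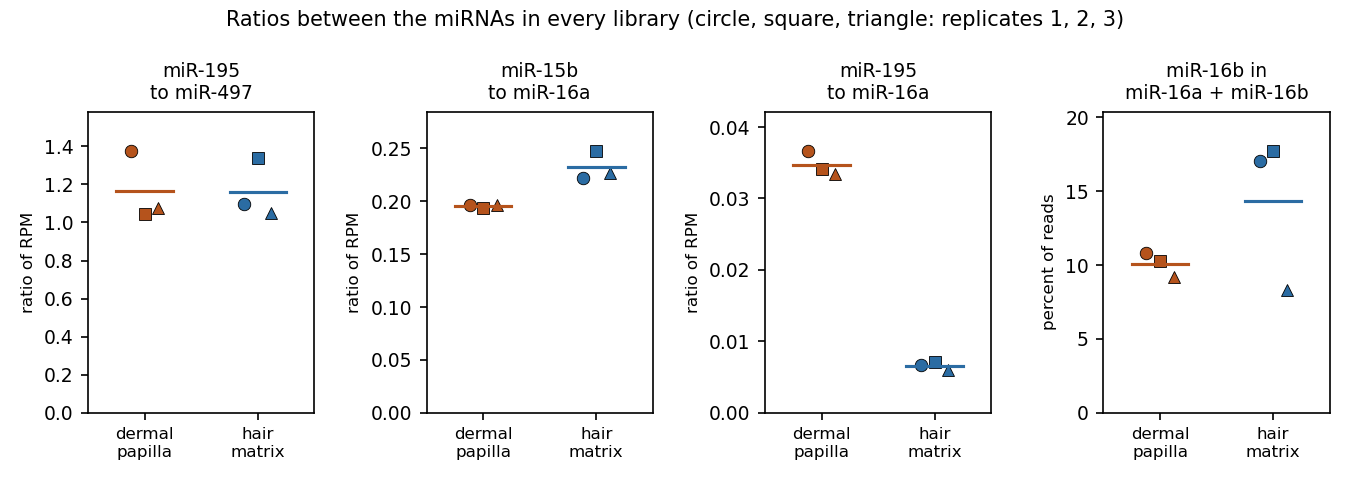
Ratio of RPM for 3 pairs of miRNAs, and the percent of miR-16a and miR-16b reads that belong to miR-16b, in every library, with dermal papilla at the left and hair matrix at the right. Points are libraries and lines are means. The ratio of miR-195 to miR-497 is 1.17 in dermal papilla cultures and 1.16 in hair matrix cultures, and the percent of miR-16b is lowest in hair matrix replicate 3, at 8.29%.

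Relatives of the members carry the same seed or its core on 1 arm of their hairpin. miR-424, whose -5p arm shares the seed, and miR-503 come from a joint cluster on the X chromosome in human, and miR-103 and miR-107 carry the core 1 base further towards the 5′ end. The capitals mark the shared core.
miR-503-5p: tAGCAGCgggaacagtactg
miR-103: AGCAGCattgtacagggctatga
miR-107: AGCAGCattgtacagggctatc
The relatives come from a chosen list, and the table was not searched for further entries with the core. Of these 4 entries with the seed or its core, 1, miR-424-5p, was called higher in dermal papilla cultures and 0 lower. Of the 503 entries, 25.2% were called higher and 19.9% lower. The median log2 change of the 4 was 0.70. With miR-503-3p and miR-424-3p, the opposite arms, which do not carry the core, 3 of 6 were called higher and 0 lower, and the median was 1.35. miR-424-5p had 21.5, 19.3 and 19.0 RPM in dermal papilla libraries and 5.22, 5.19 and 5.87 RPM in hair matrix libraries, a 3.67-fold ratio without overlap. In dermal papilla cells its level was close to those of miR-195 and miR-497. Of the opposite arms, miR-424-3p was 5.51-fold and miR-503-3p 6.29-fold higher, the second from 0.860 RPM on average in hair matrix cultures, so that it entered the test through the dermal papilla libraries. miR-503-5p had means of 23.3 ± 1.39 RPM in dermal papilla cultures and 11.4 ± 2.11 RPM in hair matrix cultures and a log2 change of 0.99, just under the minimum. After TMM scaling it was 1.00 and called, and after quantile normalization it was 0.21.

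miR-103, which lies in pantothenate kinase genes in human, had 2200 ± 74.3 and 1650 ± 63.3 RPM in dermal papilla and hair matrix cultures (SD, n = 3 each), a 1.33-fold ratio that was not called. miR-107, which differs from it only at the 3′ end, had 147, 155 and 118 RPM in dermal papilla libraries and 122, 83.6 and 194 RPM in hair matrix libraries. As with miR-16b, the groups overlapped and hair matrix replicate 3 stood apart from replicates 1 and 2, here as the highest. Its log2 change was 0.14 (limma adjusted p = 0.652), and after median centring, quantile normalization or removal of miR-21-5p from the library total it was negative.

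Other miRNAs known to repress cyclins or CDKs of the G1 phase were called in both directions. Of 22 listed entries 20 were tested, 4 were called higher in dermal papilla cultures, 3 were called lower there and 13 were not called, and their median log2 change was 0.0025. These shares are close to the 25.2% and 19.9% of all entries called higher and lower. The list was matched by name, so it also holds let-7a-3p, the opposite arm of let-7a-5p, and an entry named miR-24 beside miR-24-3p. Neither was called, at log2 changes of -0.99 for let-7a-3p and -0.69 for miR-24, and the counts and the median include them. miR-449a, a relative of miR-34, was 11.98-fold higher in dermal papilla cultures. Its neighbour miR-449b had 5.35, 4.89 and 6.64 RPM in dermal papilla libraries and 0.0405, 0.490 and 0.625 RPM in hair matrix libraries, so it entered the test through the dermal papilla libraries alone and its call follows in part from the filter. let-7i was 2.04-fold and miR-193b 2.66-fold higher, and both calls were lost after quantile normalization, at log2 changes of 0.49 and 0.94. That of let-7i was also lost after median centring, at 0.75, and without miR-21-5p in the library total, at 0.83. miR-34a, a target of p53, was 3.78-fold higher in hair matrix cultures, with miR-34c at 2.98-fold and miR-29c at 4.63-fold.

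Distances between profiles over the 6 libraries were Euclidean, on log2(RPM + 1) values centred on each entry's mean. The nearest profiles were sought among tested entries with cattle names only, which is a description without a test. For miR-195 they were miR-708, miR-323b-3p and miR-10a, at distances of 0.27, 0.28 and 0.31. For miR-497 they were miR-582, miR-431 and miR-195, at 0.14, 0.34 and 0.35. Among the 412 other entries with cattle names, miR-497 was in place 7 for miR-195. Likeness on this scale does not mean a like ratio: miR-708 had 5.81 ± 0.179 RPM in dermal papilla cultures and 0.136 ± 0.0941 RPM in hair matrix cultures, and miR-431 had no read in any hair matrix library. miR-582, with 9.80 ± 0.969 RPM in dermal papilla cultures and 0.888 ± 0.133 RPM in hair matrix cultures, differed 11.03-fold.

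For miR-16a the nearest were miR-25, miR-22-5p and miR-181b, and for miR-15a they were miR-103, miR-3600 and miR-30d. miR-15b lay nearest to miR-9-5p, miR-2285aj-5p and miR-423-3p. These all differed less than 1.5-fold between the cell types. For miR-16b no other tested entry with a cattle name came closer than 0.60, the distance of miR-324.

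Of miRNAs of other cells, the 4 blood entries, among them miR-451 of red cells, summed to 18.4 to 21.5 RPM in dermal papilla libraries and 8.54 to 11.8 RPM in hair matrix libraries, with none at 0. Most of this sum was miR-451. The other entries, miR-144, miR-223 and miR-486, were too low to be tested. Their means were 0.431, 0.652 and 0.999 RPM in dermal papilla cultures and 0.382, 0.410 and 0.520 RPM in hair matrix cultures. miR-451 itself had 18.8, 17.3 and 16.5 RPM in dermal papilla libraries and 7.05, 8.78 and 10.5 RPM in hair matrix libraries. The groups did not overlap, and the 2.00-fold ratio (log2 change 0.94, limma adjusted p = 0.000437) stayed just under the minimum. The log2 change of miR-451 was 0.66 after median centring (limma adjusted p = 0.00244) and 0.24 after quantile normalization (limma adjusted p = 0.237). Its level was thus close to that of miR-497 in dermal papilla cultures and above those of miR-195 and miR-497 in hair matrix cultures. miR-16 is also abundant in blood cells, and the part of this difference in the change of miR-16a was not tested. The endothelial miR-126-3p had 3.66 ± 0.392 RPM in dermal papilla cultures and 2.81 ± 0.655 RPM in hair matrix cultures.

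**Figure D5:**
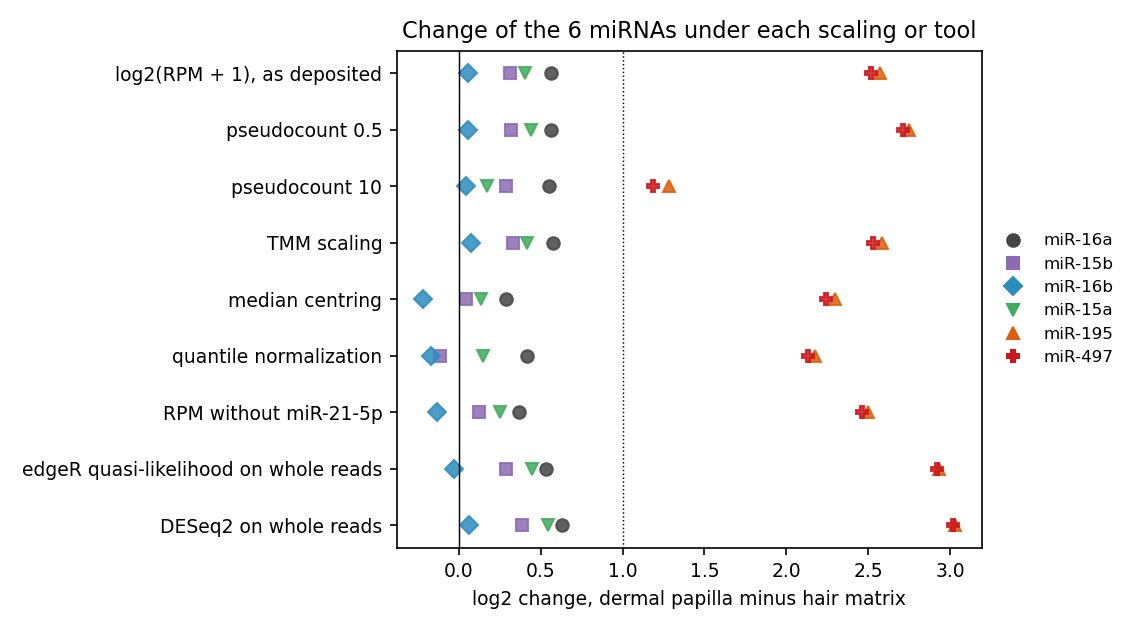
Log2 change of the 6 miRNAs, dermal papilla minus hair matrix, under each scaling, pseudocount or tool. The dotted line marks 2-fold. miR-195 and miR-497 stay above it throughout, at their lowest 1.28 and 1.18 with a pseudocount of 10, and miR-16b lies at or below 0.07.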

How the data were processed

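Small RNA of 6 libraries was analysed, 3 per cell type. The labels' protocols give a TruSeq small RNA kit and an input of 1 µg of RNA per sample. The tools were DESeq 1.20.0, HISAT2 2.2.1.0 and Trimmomatic, per the submitters' processing notes, which give no roles. For the genome build, miRNA reference and counting rule, the sources used here give nothing. The authors deposited RPM values, reads scaled to a library total, under the name TPM: within 0.001 read, 100% of the values of a library are whole multiples of its step, and this gave the whole reads behind them.

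The 503 entries that reached 1 RPM in 3 or more of the 6 libraries were fitted as log2(RPM + 1) in limma 3.58.1 (R 4.3.3) on cell type alone. Variances were moderated with a trend on the mean, and p-values were adjusted by Benjamini-Hochberg over the 503. The step was also run on simulated counts, drawn independently for each entry and library. Their outcome is not given here and does not bear on the choice of scaling. Limma called 127 entries higher and 100 lower in dermal papilla cells, edgeR 4.0.16 143 and 141 on the recovered reads, and DESeq2 1.42.0 151 and 135. The design expected TPM, and the test was kept for RPM. Members and lists were chosen with earlier results of these data known. Named miRNAs are the members, entries with their seed, the 3 nearest profiles of each member and entries of the lists. Between replicates, chi-square per degree of freedom was 26.6 to 76.8, so none agreed within counting noise. Alternatives were other pseudocounts, filters, scalings and tools, the replicate block, merged miR-16 entries and leaving out each library.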

Additional observations from a re-analysis of the deposited data

How the results depend on the processing

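miR-195 and miR-497 were called under each alternative run, and the count of members called higher in dermal papilla cells was 2 throughout except without the fold minimum, where it was 5, with miR-15a at 0.41, miR-15b at 0.32 and miR-16a at 0.56 then called. With the filter of 10 RPM both miR-195 and miR-497 passed through the dermal papilla libraries alone, so their calls there are no support. No member was called higher in hair matrix cells under any. miR-15b turned to -0.11 after quantile normalization. miR-16b turned to -0.22 after median centring, -0.17 after quantile normalization, -0.13 without miR-21-5p in the total and -0.030 in edgeR, and leaving out 1 library gave -0.26 to 0.24, negative without hair matrix replicate 3 or dermal papilla replicate 1. The log2 difference in the ratio of miR-195 to miR-497, near 0, ranged from -0.12 to 0.11 when 1 library was left out. Calls over all entries, 127 higher and 100 lower in dermal papilla cells, were 77 and 40 with a pseudocount of 10, 80 and 47 with a filter of 10 RPM, where fewer entries were tested and miR-15a was not among them, and 212 and 204 without the fold minimum. Median centring and quantile normalization gave 109 and 137, and 112 and 128, and RPM without miR-21-5p gave 123 and 138. The cause of these shifts was not tested. With the replicate number as a block the calls were 127 and 101, and no member's call changed. Same-numbered libraries deviated from their group means with correlations of 0.14, 0.08 and -0.27 across entries. These values cannot show whether equal numbers share an animal or a preparation, which the labels do not say. Counting error limits miR-195 and miR-497 in hair matrix cells, at 47 to 67 reads per library.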
